A study of Mus musculus with 4 samples.

Results

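The interleukin-6 (IL-6) family was followed through the stromal vascular fraction (SVF) of gonadal white adipose tissue (gWAT), using 8 genes chosen by their symbols: the ligands Il6, Lif, Osm and Il11, and the receptor genes Il6st, Il6ra, Osmr and Lifr. All 8 were found among the 31054 features of the count matrices, 1 row each. Cells came from p16-CreERT2/R26-LSL-tdTomato male mice of 18 months, all given tamoxifen, so that a cell in which the p16 (Cdkn2a) promoter drove CreERT2 at that time carries tdTomato (Tom+, p16high) and the other cells do not (Tom-, p16low). SVF cells were sorted by CD45 and by tdTomato into 4 groups, a Tom+ and a Tom- group with the label CD45- and a further such pair with the label CD45+, and each group was read as 1 droplet library of 3′ transcript ends. Tom+ therefore records past activity of a transgenic p16 promoter at the time of tamoxifen, not the p16 level when the cells were sorted. The study asked how p16high and p16low cells of aged fat signal to each other and to immune and vascular cells. Here the question was which cell classes held transcripts of the IL-6 family ligands and which held those of its receptors, and whether the levels differed between Tom+ and Tom- cells of 1 class.

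The cytokines of this family all signal through gp130, the protein of Il6st. IL-6 and IL-11 first bind a receptor of their own, IL-6Rα (Il6ra) or IL-11Rα (Il11ra1), and then a gp130 homodimer; LIF uses LIFR with gp130, and mouse OSM uses mainly OSMR with gp130. JAK kinases then activate STAT3, and SOCS3, made in response, shuts the receptor off. IL-6Rα is the scarce partner in many tissues: cells that have gp130 and lack IL-6Rα can answer IL-6 only together with the soluble form that ADAM10 and ADAM17 release from the surface of other cells. In adipose tissue IL-6 is a known product of progenitors and of cells with a senescence-associated secretory phenotype, and OSM is a known product of myeloid cells. A transcript level is not a measure of secreted protein or of signalling.

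With 1 library per group there was no replicate and no test, and no p-value is given. Levels are UMIs (unique molecular identifiers, 1 per captured transcript) of a gene scaled to 1000000 UMIs of the class (CPM) with an exact 95% Poisson interval, shares of cells carry an exact (Clopper-Pearson) binomial interval where one is printed, and ratios are log2 ratios of CPM with a conditional exact 95% interval. All of these cover counting error only, not differences between mice or sorts. Classes with fewer than 50 cells in a library are named only with their cell number.

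The libraries held 64083756 to 139397501 UMIs, and 3886 and 1927 cells were kept from the Tom+ libraries and 3674 and 4391 from the Tom- libraries (labelled CD45- and CD45+ in that order), with median depths of 18331 to 19516 UMIs. The Tom labels matched the reporter, with tdTomato at 713 and 714 CPM in the Tom+ libraries and 15.8 and 18.7 CPM in the Tom- libraries, while Cdkn2a itself was at 6.78 against 7.10 CPM and 7.30 against 7.57 CPM (Tom+ against Tom-). These are levels of whole libraries with different mixes of cell classes, and do not compare Tom+ with Tom- cells of 1 class. By qPCR the paper reports higher p16 in Tom+ than in Tom- adipose progenitor cells sorted from old mice. The CD45 labels did not match: Ptprc, which encodes CD45, was at 217 and 157 CPM in the libraries labelled CD45- and 223 and 188 CPM in those labelled CD45+, and adipose progenitor and immune classes were present in all 4. Cells were therefore grouped by their markers, and CD45 is used below only as a library label. Between 26 and 4394 barcodes were shared by a pair of libraries, the shallower copy holding a median of 1.06% to 6.96% of the UMIs of the deeper one. No more than 16 were kept as cells in both libraries of a pair. Of the 13878 cells kept, 3555 (605, 1426, 220 and 1304 by library) carried a barcode found in another library, and leaving them out moved 9 of 20 Tom ratios beyond their counting intervals. Whether reads were assigned to the wrong library was not tested.

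Clustering, made without the 8 genes, the pathway lists and tdTomato, gave 29 clusters. Of these, 19 met the naming rules given below, and 10, for which another class was too near by these rules, are called by their leading genes. Adipose progenitor cell (APC)-like cells made up 39.7% and 37.0% of the Tom- libraries and 6.28% and 4.93% of the Tom+ libraries (244, 1457, 95 and 1624 cells in the order Tom+ then Tom- labelled CD45-, followed by Tom+ then Tom- labelled CD45+, which is kept throughout). Pdgfra, their defining receptor, was at 462 to 517 CPM in them. Macrophage-like cells numbered 569, 215, 291 and 293, with Csf1r at 555 to 603 CPM. Lymphatic endothelial-like and mast-like cells were mostly in the Tom+ libraries, so their levels over at least 50 cells can be given only there.

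Il6 (ENSMUSG00000025746, chr5:30013114-30019981, plus strand, mm10), the founding ligand, was at its highest in APC-like cells. They held 2610, 18153, 826 and 21009 Il6 UMIs, which is 477 CPM (459 to 496), 561 CPM (552 to 569), 370 CPM (345 to 396) and 541 CPM (534 to 549). In every library this was above all other classes of at least 50 cells, with no overlap. An Il6 UMI was found in 55.7% (49.3 to 62.1), 58.9% (56.3 to 61.4), 50.5% (40.1 to 60.9) and 60.8% (58.4 to 63.2) of APC-like cells. The share was 4.75% (3.15 to 6.83), 19.1% (14.0 to 25.0), 8.25% (5.36 to 12.0) and 14.7% (10.8 to 19.3) of macrophage-like cells, of about the same median depth (21060 to 22741.5 UMIs in APC-like and 20950 to 23072 in macrophage-like cells). Thinning each cell to 2000 UMIs left Il6 in 31.3%, 32.5%, 21.1% and 33.9% of APC-like cells.

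Macrophage-like cells, which are often named as a source of IL-6 in fat, held 4.33, 13.3, 6.72 and 7.55 CPM of Il6. Plasma cell-like cells, taken here as a reference for free RNA in the droplets, held 1.41, 0.679 and 4.68 CPM where at least 50 cells were present. Set against Dcn, an abundant stromal transcript, macrophage-like cells had 122, 123, 103 and 60.0 Il6 UMIs per 1000 Dcn UMIs, plasma cell-like cells 74.5, 46.4 and 73.0, and APC-like cells 39.6, 40.2, 27.6 and 38.0. In CPM the macrophage-like level was above that of plasma cell-like cells in each of these libraries. There the macrophage-like counts were 63, 45 and 53 UMIs in 569, 291 and 293 cells. The plasma cell-like counts were 43, 11 and 10 UMIs in 831, 427 and 57 cells, so counted by cell CD45+ Tom- was about the same in both. The ratio to Dcn was above that of plasma cell-like cells in the Tom+ libraries only. In CPM both classes were far below APC-like cells, while both had a higher ratio to Dcn than APC-like cells. Plasma cell-like cells were deeper, at medians of 38756 to 39369 UMIs. B cell-like and T cell-like cells held 20.4 and 20.2 CPM of Il6 in CD45- Tom-, above macrophage-like cells. In CPM they were also above macrophage-like cells in CD45+ Tom-, and below them in the Tom+ libraries. Their depth was lower, with medians in CD45- Tom- of 5295.5 and 5595 against 20950 UMIs. Counted by cell the order was the reverse: 29 UMIs in 208 and 22 in 181 cells, against 65 in 215 macrophage-like cells. In CD45+ Tom- it was 20 UMIs in 296 and 18 in 266 cells, against 53 in 293. The part of free RNA in the macrophage-like Il6 level was not tested.

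Mast-like cells, which carry Kit (1639 and 1695 CPM in the Tom+ libraries), held more Il6 than any other named immune class with at least 50 cells: 117 CPM (104 to 131) in the 360 cells of CD45- Tom+ and 128 CPM (110 to 148) in the 172 cells of CD45+ Tom+. Their Dcn was at 55.4 and 25.0 CPM, so the ratio was 2110 and 5118 Il6 UMIs per 1000 Dcn UMIs, far above that of APC-like cells. An unnamed cluster led by Arg1, Olr1 and AA467197, with the macrophage receptor Csf1r at 410 to 521 CPM, held 46.1, 35.1, 47.3 and 55.8 CPM of Il6, and 1423, 266, 1800 and 440 Il6 UMIs per 1000 Dcn UMIs.

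Of the stromal classes, mesothelial-like cells held 77.0, 119 and 107 CPM of Il6 in the libraries with at least 50 of them. An unnamed cluster led by Cthrc1, Fbn2 and Col8a1 held 161 and 150 CPM in the Tom- libraries, and one led by Cxcl13, Cxcl5 and Saa3 held 50.4, 99.2, 33.2 and 66.9 CPM. A cluster led by Gpihbp1, Rbp7 and Cldn5, genes of capillary endothelium, ranged most, at 82.2, 18.5, 168 and 99.6 CPM. A further cluster led by Ly6k, Iglv1 and Ly6d held 217 CPM over 77 cells of CD45- Tom+. The median depth of those cells was 55442 UMIs, over 2-fold that of the APC-like cells, and they held stromal Dcn at the same Il6 ratio as APC-like cells, 41.2 Il6 UMIs per 1000 Dcn UMIs. With finer clusters (Leiden resolution 2), a cluster also led by Ly6k, Iglv1 and Ly6d had 10 of 11 APC and 6 of 8 plasma cell markers raised. Whether the droplets of the Ly6k/Iglv1/Ly6d cluster held more than 1 cell was not tested.

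**Figure D1:**
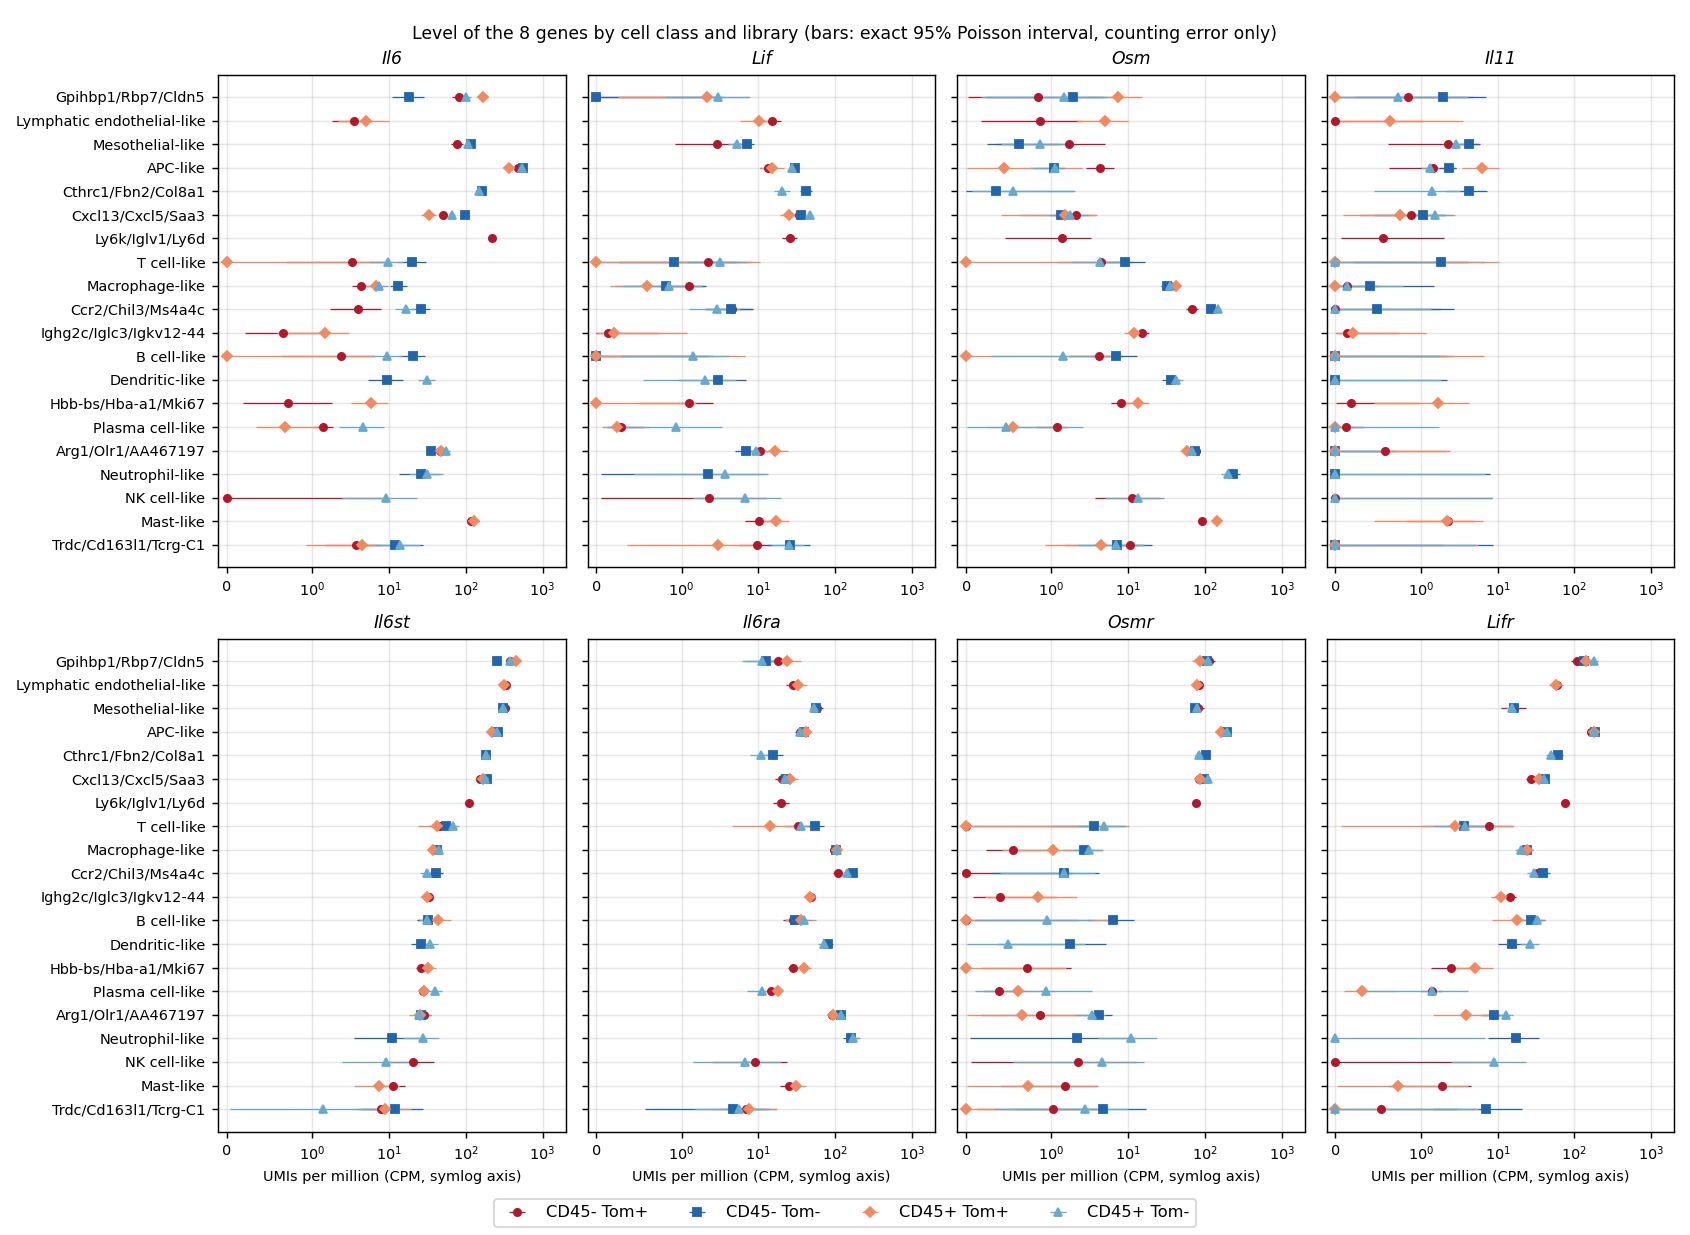
Level of each of the 8 genes (CPM on a symmetric log axis, linear near 0) by cell class; each point is 1 library and each bar through it the exact 95% Poisson interval, for classes of at least 50 cells. Il6 and Osmr stand highest in APC-like cells, Osm in neutrophil-like, other myeloid and mast-like classes, and Il6ra in neutrophil-like and other myeloid classes.

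Counted as a share of a library's Il6 UMIs, APC-like cells held 57.0%, 85.4%, 42.2% and 87.2%. The lower shares of the Tom+ libraries go with their fewer APC-like cells. There the Ly6k/Iglv1/Ly6d cluster held 16.9% and 19.0% (the second from 24 cells), mast-like cells 6.68% and 8.89%, and the Cxcl13/Cxcl5/Saa3 cluster 6.18% and 4.44%. Mesothelial-like cells held 6.25% and 5.12% in the Tom- libraries.

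The window of 250 bases before the Il6 start is shown because 4 of the 5 motifs searched were found in it, with that of Lif, the other ligand of APC-like cells, for comparison (RefSeq sequence, GRCm38.p6; capitals mark the motif matches).
Il6, chr5:30012864-30013113, plus strand: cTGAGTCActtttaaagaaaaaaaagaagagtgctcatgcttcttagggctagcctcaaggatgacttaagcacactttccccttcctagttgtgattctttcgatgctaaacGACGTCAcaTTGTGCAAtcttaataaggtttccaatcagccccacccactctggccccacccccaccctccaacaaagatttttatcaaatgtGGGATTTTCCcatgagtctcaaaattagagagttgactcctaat
Lif, chr11:4257318-4257567, plus strand: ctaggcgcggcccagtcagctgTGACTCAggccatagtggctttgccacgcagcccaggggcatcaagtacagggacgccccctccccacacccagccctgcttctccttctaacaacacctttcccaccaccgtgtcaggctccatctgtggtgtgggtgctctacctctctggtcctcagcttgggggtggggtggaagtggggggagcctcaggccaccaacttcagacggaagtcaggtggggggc
The motifs were searched on both strands with letters alone: AP-1 as TGANTCA, CRE (the cyclic AMP response element) as TGACGTC, C/EBP as TTGNGCAA, STAT as TTCNNNGAA and NF-κB by its usual site of 10 letters. In the Il6 window AP-1 lay 249 bases before the start, CRE 137, C/EBP 128 and NF-κB 44, and in the Lif window AP-1 lay 228 bases before it. Of 32851 windows of the same length in the table, 0.356% held NF-κB, 2.61% C/EBP, 2.78% CRE, 6.75% AP-1 and 7.02% STAT. One of 2 Il11 windows held AP-1, 98 bases before the start, and the windows of Il6st, Il6ra, Osmr and Lifr held 0 matches. These percents hold for the letters searched only. Whether the choice of motifs favoured Il6 was not tested. A match is a run of letters and not a measured site.

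Lif (ENSMUSG00000034394, chr11:4257557-4272514, plus strand), leukaemia inhibitory factor, had several sources. The Cxcl13/Cxcl5/Saa3 cluster held 33.9, 36.0, 24.8 and 46.3 CPM, and APC-like cells 13.3 CPM (10.5 to 16.8), 29.6 CPM, 15.2 CPM and 27.2 CPM. The cluster had the higher level in each library, and the Cthrc1/Fbn2/Col8a1 cluster, at 41.5 and 20.4 CPM in the Tom- libraries, overlapped it. Lif UMIs were in 10.7%, 16.1%, 12.6% and 16.6% of APC-like cells and in 1.37% to 2.64% of macrophage-like cells. A cluster led by Trdc, Cd163l1 and Tcrg-C1 (260, 57, 93 and 90 cells) held 9.55, 26.1, 3.01 and 25.0 CPM from 18, 11, 2 and 18 UMIs, close to APC-like cells in the Tom- libraries. Lymphatic endothelial-like cells held 14.8 and 10.2 CPM and mast-like cells 10.3 and 16.9 CPM in the Tom+ libraries. Of all Lif UMIs, the Cxcl13/Cxcl5/Saa3 cluster held 33.4%, 17.9%, 31.0% and 21.3%, and APC-like cells 12.8%, 63.0%, 16.2% and 61.9%. Over the alternatives run, the APC-like shares ranged from 6.82% to 35.3%, 56.3% to 85.8%, 13.3% to 44.3% and 57.3% to 82.3%. The upper ends came from finer clusters (Leiden resolution 2), where a cluster led by Cxcl13, Cxcl5 and Saa3 and one led by Fbn2, Cthrc1 and Col8a1 met the naming rules for APC-like, so that the class itself differed.

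Osm (ENSMUSG00000058755, chr11:4236420-4241026, plus strand), which encodes oncostatin M and lies 16531 bases from Lif, was a transcript of myeloid and mast-like cells. Of the classes with at least 50 cells, neutrophil-like cells, marked by S100a8, held the most in the Tom- libraries, 234 and 199 CPM. They held 159 and 198 CPM in the 21 and 23 cells of the Tom+ libraries. A cluster led by Ccr2, Chil3 and Ms4a4c, genes of monocytes, held 68.5, 122, 81.2 and 147 CPM (the third over 46 cells). Mast-like cells held 92.4 and 143 CPM in the Tom+ libraries. In the 38 and 46 mast-like cells of the Tom- libraries Osm was at 260 CPM (203 to 328) and 106 CPM (71.9 to 150). The Arg1/Olr1/AA467197 cluster held 76.8, 74.2, 58.5 and 68.0 CPM, and macrophage-like cells 35.1, 32.0, 41.8 and 35.2 CPM. The macrophage-like level kept within 32.0 to 41.8 CPM in libraries in which the APC-like level was at 4.39, 1.08, 0.448 and 1.11 CPM. An Osm UMI was in 43.8%, 37.7%, 44.0% and 38.6% of macrophage-like cells and in 1.05% to 4.92% of APC-like cells.

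Because macrophage-like cells were many, they held 34.5% and 35.3% of the Osm UMIs of the Tom+ libraries at that moderate level. Mast-like cells held 16.3% and 24.5% there. In the Tom- libraries the Arg1/Olr1/AA467197 cluster held 34.3% and 31.9%, the Ccr2/Chil3/Ms4a4c cluster 21.9% and 27.7%, and neutrophil-like cells 9.34% and 7.43%. Il6 and Osm thus had different main sources in each library, APC-like cells for Il6 and immune classes for Osm, with mast-like cells holding both.

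Il11 (ENSMUSG00000004371, chr7:4772373-4782859, minus strand) was close to the limit of detection, with 36, 150, 28 and 104 UMIs per library. Mesothelial-like cells held 2.28, 4.29 and 2.85 CPM and, in the Tom- libraries, 32.0% and 31.7% of the Il11 UMIs. APC-like cells held 1.46, 2.32, 6.27 and 1.34 CPM, the third of these resting on 14 UMIs of 2 cells. At these counts no order of the classes is given.

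**Figure D2:**
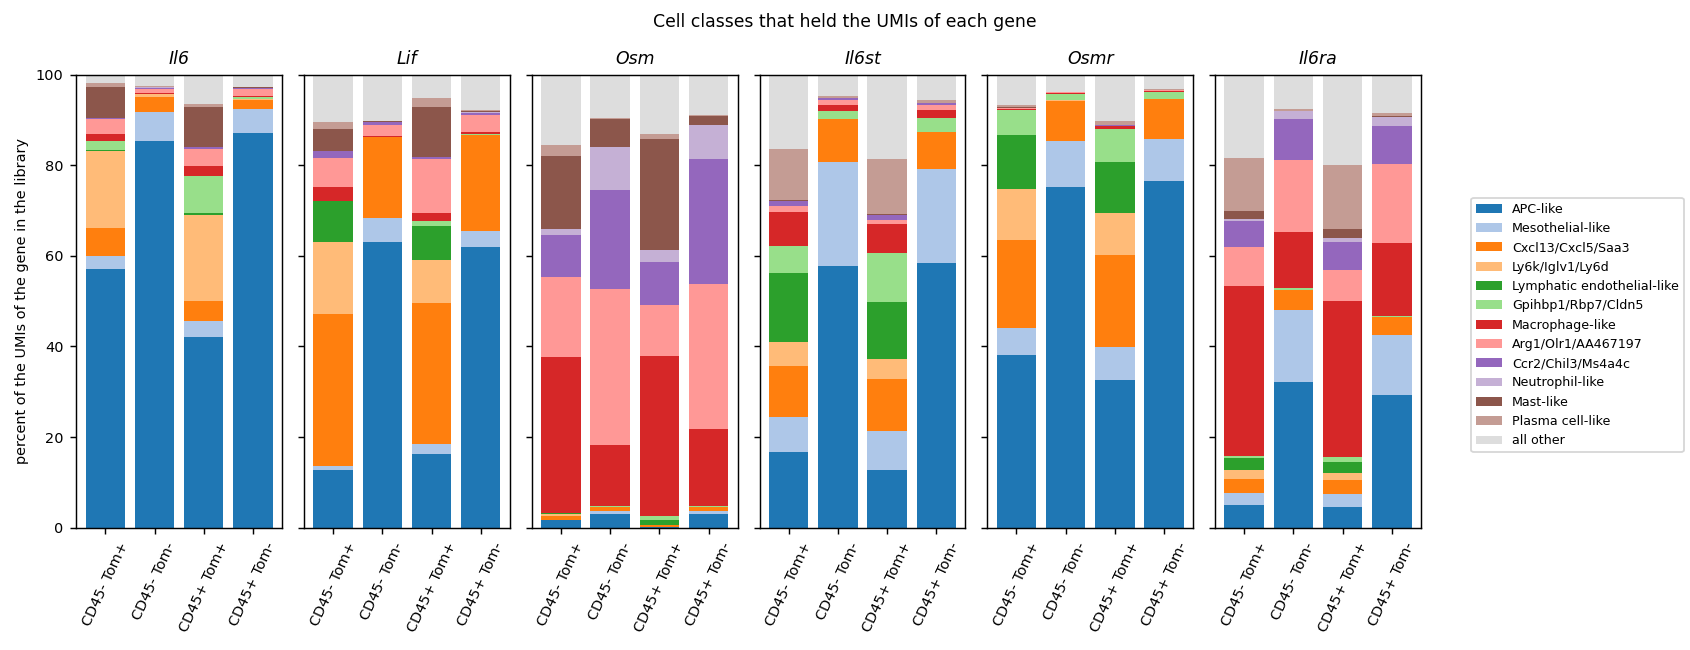
Percent of a library's UMIs of Il6, Lif, Osm, Il6st, Il6ra and Osmr held by each cell class; each stacked bar is 1 library. APC-like cells hold 85.4% and 87.2% of Il6 UMIs in the Tom- libraries and 57.0% and 42.2% in the Tom+ libraries, while Osm UMIs are spread over myeloid and mast-like classes.

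Il6st (ENSMUSG00000021756, chr13:112464070-112510086, plus strand), the shared gp130 subunit, was found in every class with many cells but not evenly. The Gpihbp1/Rbp7/Cldn5 cluster (372, 259, 450 and 376 CPM), lymphatic endothelial-like cells (333 and 313 CPM in the Tom+ libraries) and mesothelial-like cells (328, 306 and 309 CPM) held the most, and their ranges overlapped. APC-like cells followed at 229 CPM (216 to 242), 265 CPM (259 to 271), 222 CPM (203 to 243) and 258 CPM (253 to 263), with a UMI in 94.7%, 97.2%, 95.8% and 97.3% of cells. Macrophage-like cells held 38.4, 42.3, 37.0 and 44.6 CPM, T cell-like cells 42.2 to 67.9 CPM, and mast-like cells 11.5 and 7.35 CPM in the Tom+ libraries. Mast-like cells, a source of Il6 and Osm, thus had a UMI of the shared receptor subunit in 8.33% and 5.81% of cells, at median depths of 6274.5 and 6753 UMIs against 21464 and 21341 UMIs in APC-like cells. After thinning to 2000 UMIs the shares were 2.78% and 1.16% of mast-like against 36.2% and 38.9% of APC-like cells.

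Il6ra (ENSMUSG00000027947, chr3:89864059-89913196, minus strand), the IL-6-binding subunit, was by contrast highest in myeloid classes. Its locus overlaps the antisense gene Gm42809, so reads of the pair can be told apart only by strand. Neutrophil-like cells held 160 and 170 CPM in the Tom- libraries, the Ccr2/Chil3/Ms4a4c cluster 108, 171, 135 and 140 CPM, the Arg1/Olr1/AA467197 cluster 91.9, 119, 94.6 and 118 CPM, and macrophage-like cells 95.8, 102, 105 and 104 CPM. The ranges of these 4 classes overlapped from one to the next. Mesothelial-like cells held 57.0, 56.7 and 52.7 CPM and APC-like cells 34.5, 39.4, 41.2 and 34.7 CPM. Il6ra UMIs were in 79.6%, 78.1%, 75.9% and 79.2% of macrophage-like and 47.5%, 48.9%, 49.5% and 47.5% of APC-like cells, against 34.9%, 41.7% and 28.1% of plasma cell-like cells, in which its level was 11.2 to 17.8 CPM.

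Osmr (ENSMUSG00000022146, chr15:6813577-6874969, minus strand), the OSM-binding subunit, was a stromal and endothelial gene. APC-like cells held 169, 194, 164 and 193 CPM, above every other class of at least 50 cells, and 85.2%, 89.3%, 87.4% and 91.1% of them had a UMI. The Gpihbp1/Rbp7/Cldn5 cluster held 113, 107, 86.6 and 110 CPM, the Cxcl13/Cxcl5/Saa3 cluster 83.8, 98.8, 87.4 and 110 CPM, and lymphatic endothelial-like cells 83.5 and 80.2 CPM. Macrophage-like cells held 0.550, 2.67, 1.05 and 3.13 CPM, with a UMI in 1.41% to 6.48% of cells. The ratio of Osmr to Dcn in them, 15.4, 24.6, 16.1 and 24.9 per 1000 Dcn UMIs, rested on 8, 13, 7 and 22 Osmr UMIs and stood beside 14.0, 13.9, 12.2 and 13.5 in APC-like cells. The Ccr2/Chil3/Ms4a4c and Arg1/Olr1/AA467197 clusters held 0 to 4.15 CPM of Osmr. Neutrophil-like cells held 2.19 CPM (0.0554 to 12.2) and 11.1 CPM (4.06 to 24.1) in the Tom- libraries, from 1 and 6 UMIs. The myeloid classes with the most Osm were thus far below APC-like cells in Osmr, and the class with the most Osmr had Osm at 0.448 to 4.39 CPM.

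Lifr (ENSMUSG00000054263, chr15:7090614-7197489, plus strand), the LIF-binding subunit, lies 215645 bases from Osmr. It was at 164, 183, 182 and 178 CPM in APC-like cells, with a UMI in 81.6%, 82.2%, 88.4% and 82.5% of them, and at 108, 132, 143 and 178 CPM in the Gpihbp1/Rbp7/Cldn5 cluster, whose range overlapped. It separated from Osmr in mesothelial-like cells, where Lifr was at 16.5, 16.4 and 15.2 CPM and Osmr at 82.7, 74.9 and 78.2 CPM. The same held in the reverse direction for macrophage-like cells, at 22.0, 23.8, 24.0 and 20.1 CPM of Lifr with almost no Osmr. Plasma cell-like cells held Lifr at 0.309 to 1.41 CPM. In the Cxcl13/Cxcl5/Saa3 cluster, a main source of Lif, Lifr was at 27.3 to 40.9 CPM, below the level in APC-like cells.

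Receptor subunits were read together in single cells. Il6st and Osmr were both found in 80.7%, 87.6%, 84.2% and 89.5% of APC-like cells, Il6st and Lifr in 79.5%, 80.7%, 85.3% and 81.2%, and all 3 in 71.3%, 75.2%, 74.7% and 76.7%. Il6st and Il6ra, the pair needed to answer IL-6 without the soluble receptor, were found together in 44.3%, 47.9%, 48.4% and 46.6% of APC-like cells. In macrophage-like cells that pair was found in 45.5%, 43.3%, 42.3% and 46.8%, a like share although Il6ra was higher and Il6st lower there.

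Ligand and receptor were also found in the same APC-like cells. Among cells with an Il6 UMI, 96.3%, 98.0%, 100% and 97.9% had Il6st and 46.3%, 49.7%, 58.3% and 47.7% had Il6ra. Among cells without one, the shares were 92.6%, 96.0%, 91.5% and 96.4% for Il6st and 49.1%, 47.9%, 40.4% and 47.2% for Il6ra. After thinning to 2000 UMIs, Il6st was in 42.1%, 44.8%, 30.0% and 37.3% of cells with Il6 and 33.5%, 44.3%, 41.3% and 40.0% of cells without, with no direction common to the 4 libraries. Lifr was in 78.3% to 88.5% of cells with Lif and 80.7% to 89.2% of cells without. A contrasting pair was Il6 and Ptx3, which encodes the long pentraxin of inflamed stroma: after thinning, Ptx3 was in 47.4%, 41.0%, 45.0% and 41.5% of cells with Il6 and in 15.6%, 18.8%, 16.0% and 17.3% of those without.

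APC-like cells fell into 4 clusters, led by Inmt, Fgf10, Sfrp1 and Pi16. As clusters are formed by expression, the following is a description. The Sfrp1 cluster (40, 303, 21 and 289 cells) held the most Il6, at 1094, 1017, 802 and 1007 CPM, with a UMI in 83.8% and 84.4% of cells in the Tom- libraries. The Fgf10 cluster held 447, 545, 539 and 595 CPM (the third over 18 cells) and the Inmt cluster 194, 354, 90.1 and 335 CPM. The Pi16 cluster, named for a marker of interstitial progenitors, held 297 and 198 CPM in the 129 and 138 cells of the Tom- libraries, and 558 CPM over 18 cells of CD45- Tom+.

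Lif had the same leading cluster. It was at 46.2, 74.3, 29.0 and 71.2 CPM in the Sfrp1 cluster and at 7.19 to 11.1 CPM in the Inmt cluster. Ptx3 was likewise at 987, 585, 532 and 607 CPM in the Sfrp1 cluster and 122, 203, 197 and 220 CPM in the Inmt cluster. The feedback gene Socs3, which IL-6 family cytokines induce, was in contrast highest in the Inmt cluster, at 661, 574, 720 and 572 CPM, against 503, 411, 478 and 410 CPM in the Sfrp1 cluster.

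Receptors varied less, apart from the Pi16 cluster. Il6st was between 178 and 305 CPM in all 4 clusters and libraries. Lifr was at 39.3, 37.6, 36.4 and 31.3 CPM in the Pi16 cluster and 139 to 220 CPM in the other clusters, and Osmr at 87.3, 94.2, 42.5 and 87.9 CPM against 151 to 232 CPM. The Pi16 values of the Tom+ libraries rest on 18 and 5 cells. Il6ra was at 57.0 and 50.4 CPM in the Pi16 cluster of the Tom- libraries, 49.6 and 39.5 CPM in the Inmt cluster, 35.6 and 40.1 CPM in the Sfrp1 cluster and 23.6 and 20.5 CPM in the Fgf10 cluster.

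**Figure D3:**
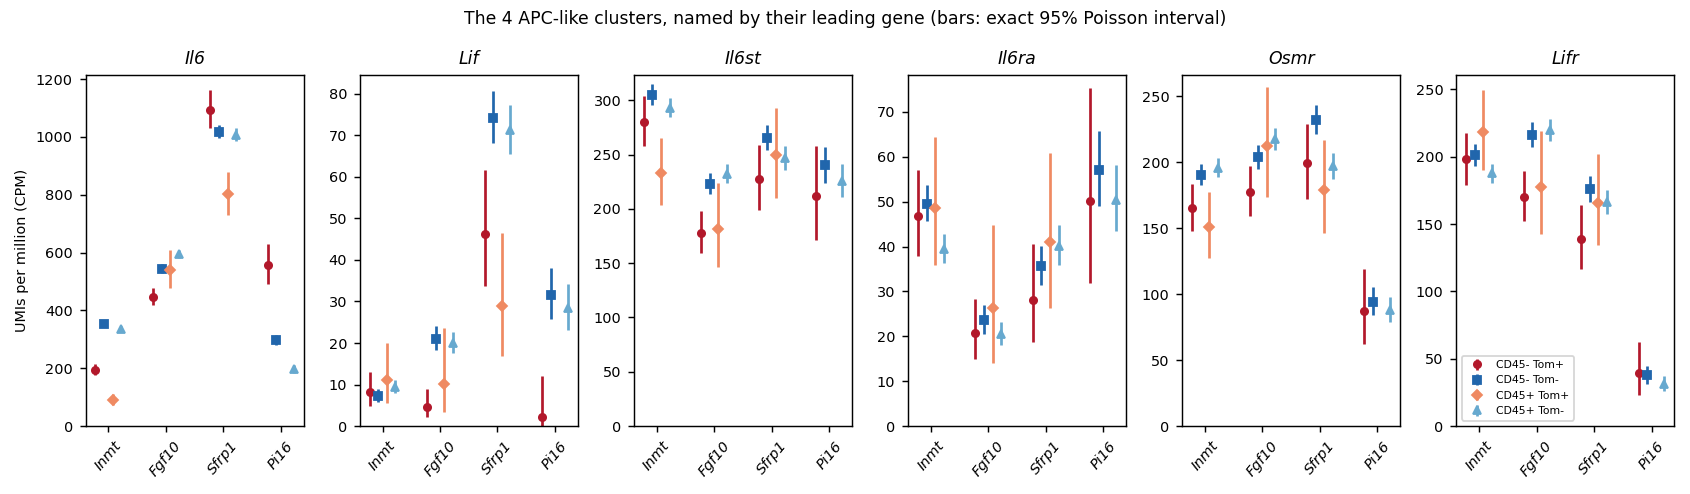
Level (CPM) of 6 genes in the APC-like clusters led by Inmt, Fgf10, Sfrp1 and Pi16; points are libraries and bars exact 95% Poisson intervals. The Sfrp1 cluster is highest for Il6 (802 to 1094 CPM) and the Pi16 cluster lowest for Lifr (31.3 to 39.3 CPM); a point resting on 5 cells is left out.

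Il6 was also uneven between single cells. The 10% of APC-like cells with the most Il6 held 64.0%, 61.7%, 68.3% and 59.6% of the Il6 UMIs of the class. A total of 18, 101, 6 and 124 cells, or 7.38%, 6.93%, 6.32% and 7.64%, held 50% of them, and the highest cell had 132, 194, 85 and 203 UMIs while the median cell had 1. Lif was more concentrated still, with 98.6%, 90.7%, 94.1% and 90.0% of its UMIs in the top 10% of cells, whereas the top 10% for Il6st held 24.6%, 22.7%, 24.7% and 22.8%. The Poisson intervals on Il6 and Lif levels treat UMIs as independent, and are therefore too narrow for a gene of which 6 cells can hold 50% of the UMIs.

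**Figure D4:**
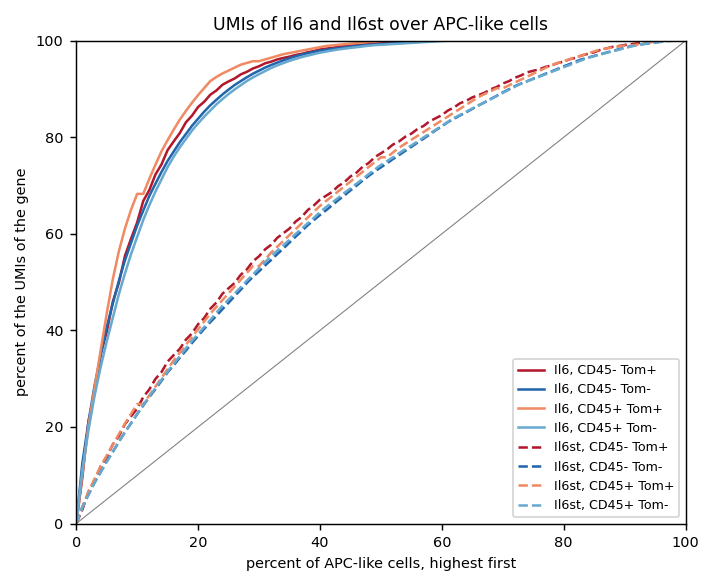
Cumulative percent of the UMIs of Il6 (solid) and Il6st (dashed) over APC-like cells ordered from the highest, in percent of cells, 1 colour per library. The Il6 curves reach 50% of UMIs within 6.32% to 7.64% of cells, far to the left of the Il6st curves.

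Between Tom+ and Tom- APC-like cells, the family genes of at least 5 CPM in both libraries differed by less than 2-fold, except Lif in the pair labelled CD45-. Of 9591 genes of at least 5 CPM in both libraries labelled CD45-, 0.772% were past 2-fold in either direction, and of the 6 family genes that reached this level, 1, Lif, was. In the pair labelled CD45+ the background was 0.807% of 9423 genes and 0 of 6 family genes were past 2-fold. The median log2 ratio, Tom+ over Tom-, was -0.21 and -0.22 over the 6 genes and -0.03 and -0.05 over all genes. The interval lay below 0 for 5 and 4 of the 6 genes, against 14.0% and 12.8% of all genes, and above 0 for 0 of 6 in both pairs. The 5th to 95th percentile of all genes ran from -0.38 to 0.32 and from -0.51 to 0.42. At a minimum of 20 CPM Lif fell out, and 0 of the 5 family genes left were past 2-fold in either pair. Their interval lay below 0 for 4 and 3 of 5, against 18.5% and 17.8% of all genes at that minimum.

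Lif was lower in Tom+ APC-like cells in both pairs, with a log2 ratio of -1.15 (-1.51 to -0.80; 13.3 against 29.6 CPM, 73 against 957 UMIs) and -0.84 (-1.38 to -0.35; 15.2 against 27.2 CPM, 34 against 1057 UMIs). These UMIs came from 26 and 12 Tom+ cells. When every cell was thinned to 2000 UMIs, the second ratio became 0.65. Over the alternatives run, the first ratio ranged from -2.14 (thinned to 2000 UMIs) to -0.51 (Leiden resolution 2) and was -0.74 without shared barcodes, and the second was otherwise between -0.96 and -0.22.

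Il6 was lower in Tom+ cells by less, and its log2 ratio was -0.23 (-0.29 to -0.17) between the libraries labelled CD45- and -0.55 (-0.65 to -0.45) between those labelled CD45+. The Tom+ libraries differed from each other by about as much: the ratio of CD45- Tom+ to CD45+ Tom+ was 0.37 (0.25 to 0.48), and that of CD45- Tom- to CD45+ Tom- 0.05 (0.02 to 0.08). As above, 18 and 6 cells held 50% of the Tom+ UMIs. With Leiden resolution 2, whose wider APC-like class is described above, the ratios were -0.59 and -0.93, and with the Tom+ and Tom- cells set to 1 mix of the 4 clusters the first was -0.14. Among clusters, Il6 was lower in Tom+ cells of the Inmt cluster, at 194 against 354 and 90.1 against 335 CPM, and not in those of the Sfrp1 cluster labelled CD45-, at 1094 against 1017 CPM.

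The receptors were slightly lower in Tom+ APC-like cells or the same within counting error. Il6st had log2 ratios of -0.21 (-0.30 to -0.13) and -0.21 (-0.35 to -0.08), and Osmr of -0.20 (-0.30 to -0.10) and -0.23 (-0.39 to -0.08). Lifr had -0.16 (-0.26 to -0.06) and 0.03 (-0.12 to 0.17), and Il6ra -0.19 (-0.42 to 0.03) and 0.25 (-0.07 to 0.55). Il6st and Osmr thus had the same sign in both pairs, at a size inside the 5th to 95th percentile of all genes. Of the APC-like cells, 49.6%, 46.5%, 53.7% and 47.7% were in the Inmt cluster, 26.6%, 23.9%, 18.9% and 26.0% in the Fgf10 cluster, 16.4%, 20.8%, 22.1% and 17.8% in the Sfrp1 cluster and the rest in the Pi16 cluster.

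Markers of some other cell types, though not of all, moved with the Tom label inside APC-like cells. Ptprc was at 25.9 and 23.7 CPM in the Tom+ and 11.4 and 8.99 CPM in the Tom- cells. The 8 plasma cell markers summed to 2090 and 3304 CPM in Tom+ cells and 392 and 377 CPM in Tom- cells, with 8 of 8 higher in Tom+ in both pairs and none at 0, and the 8 mast cell markers to 81.7 and 68.9 CPM against 33.0 and 21.9 CPM, also 8 of 8 higher. Plasma cell-like and mast-like cells were many in the Tom+ libraries. Other lists differed between the pairs or went the other way. T cell markers summed to 37.6 against 9.08 CPM (Tom+ against Tom-, labelled CD45-) and 3.13 against 11.3 CPM (labelled CD45+). Neutrophil markers summed to 112 against 14.2 and 4.03 against 10.5 CPM, and monocyte markers to 375 against 393 and 359 against 385 CPM. The 11 APC markers summed to 41574 and 41743 CPM in Tom+ and 47123 and 47343 CPM in Tom- cells, with 0 of 11 higher in Tom+ in either pair, so that the markers of the class and its Il6st and Osmr were lower together. The part of these levels in the ratios was not tested, apart from leaving out the APC-like cells with a Ptprc UMI, an alternative chosen after the data were seen. Il6st and Osmr were then at -0.20 and -0.19 in the pair labelled CD45- and -0.21 and -0.19 in the other, Lif at -1.01 and -0.61, Il6 at -0.16 and -0.81, and Lifr at -0.02 and 0.07.

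**Figure D5:**
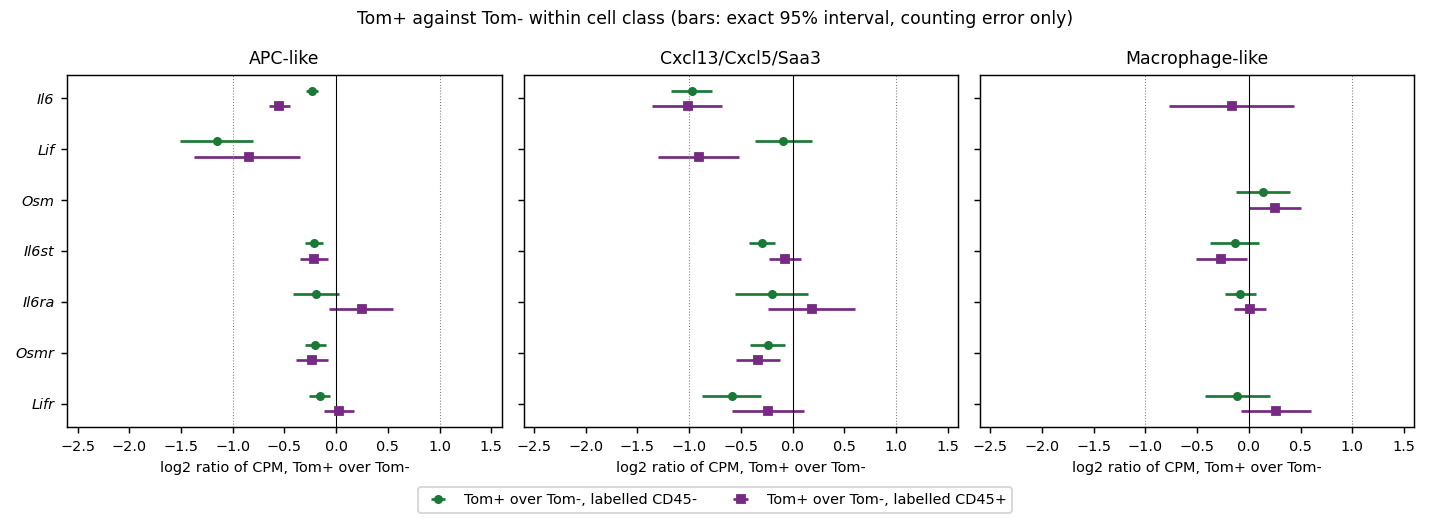
Log2 ratio of CPM, Tom+ over Tom-, for each family gene of at least 5 CPM in both libraries, in APC-like cells, the Cxcl13/Cxcl5/Saa3 cluster and macrophage-like cells; colours are the pairs labelled CD45- and CD45+, bars the exact 95% intervals (counting error only), and dotted lines mark 2-fold. Lif at -1.15 in APC-like cells and Il6 at -1.01 in the Cxcl13/Cxcl5/Saa3 cluster are the points past a line.

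Between libraries of the same Tom label, 0 of 6 family genes in APC-like cells were past 2-fold, over a background of 0.919% (Tom+) and 0.0515% (Tom-) of genes. In the Tom- pair, with 1457 and 1624 cells, the ratios of CD45- to CD45+ were 0.05 for Il6, 0.12 for Lif, 0.04 for Il6st, 0.01 for Osmr, 0.04 for Lifr and 0.19 (0.07 to 0.30) for Il6ra. The 2 Tom- libraries were thus close to each other in all 6 genes.

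Macrophage-like cells had no family gene past 2-fold by Tom label among the 4 and 5 that reached 5 CPM in both libraries, over a background of 0.731% and 0.85% of genes. Osm was at 35.1 against 32.0 CPM (log2 ratio 0.13, -0.13 to 0.40) and 41.8 against 35.2 CPM (0.25, -0.00 to 0.50). Il6ra had ratios of -0.08 (-0.23 to 0.07) and 0.01 (-0.14 to 0.16), so in this class neither Osm nor Il6ra differed by Tom label beyond counting error. Il6st had -0.14 (-0.37 to 0.10) and -0.27 (-0.51 to -0.02). Il6 was outside the count in the pair labelled CD45- because its Tom+ level was under 5 CPM. It was at 4.33 against 13.3 CPM there, a log2 ratio of -1.62 (-2.15 to -1.10; 63 against 65 UMIs), and at -0.17 (-0.77 to 0.43) in the other pair. The 11 APC markers summed to 385 against 673 CPM and 425 against 809 CPM in these macrophage-like cells, and their part in the Il6 ratio was not tested.

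Other classes showed larger Tom ratios in places. In the Cxcl13/Cxcl5/Saa3 cluster, Il6 was lower in Tom+ cells by about 2-fold in both pairs, at -0.98 (-1.18 to -0.78) and -1.01 (-1.36 to -0.68), while Lif was at -0.09 (-0.36 to 0.18) and -0.90 (-1.30 to -0.52). In the Gpihbp1/Rbp7/Cldn5 cluster Il6 was higher in Tom+ cells, by 2.15 (1.43 to 2.95; 97 against 19 UMIs) and 0.75 (0.41 to 1.10). In that cluster, however, Il6 also differed by -2.43 (-3.21 to -1.73) between the Tom- libraries labelled CD45- and CD45+, which is larger than either Tom ratio. In the Trdc/Cd163l1/Tcrg-C1 cluster Lif was at -1.45 (-2.61 to -0.22; 18 against 11 UMIs) and -3.05 (-6.21 to -0.99; 2 against 18 UMIs). In the Ccr2/Chil3/Ms4a4c cluster, where the pair labelled CD45- had at least 50 cells on each side, Osm was at -0.83 (-1.14 to -0.52) and Il6ra at -0.66 (-0.91 to -0.41). Il6ra was also lower in Tom+ cells of the Arg1/Olr1/AA467197 cluster, at -0.38 (-0.58 to -0.18) and -0.32 (-0.58 to -0.06). Osm in that cluster was at 0.05 (-0.18 to 0.28) and -0.22 (-0.56 to 0.11). T cell-like cells had Il6ra at -0.76 (-1.46 to -0.10, 29 against 60 UMIs) and -1.37 (-3.04 to -0.08, 5 against 68 UMIs).

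The rest of the pathway was read through lists of 82 genes. In APC-like cells 73 and 72 of them reached 5 CPM in both libraries, of which 0 and 1 were past 2-fold by Tom label; the 1 gene was Lrg1, at 5.37 against 11.6 CPM from 12 Tom+ UMIs. No list gene was past 2-fold in the same direction in both pairs. Of the JAK-STAT transducers, all 8 were measured, with median log2 ratios of -0.11 and -0.19. Stat3, which carries the signal of all these cytokines, was at 306, 313, 280 and 309 CPM, with ratios of -0.03 and -0.14.

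The negative regulators had medians of -0.01 and -0.07 over 8 of 9 genes. Socs3, the feedback inhibitor of gp130, stood at 496, 430, 541 and 427 CPM in APC-like cells, the most of any class, with ratios of 0.21 (0.15 to 0.27) and 0.34 (0.26 to 0.43), opposite in sign to Il6 and Il6st. Cish was also higher in Tom+ cells, at 0.52 and 0.69. The 20 STAT3 target genes had medians of -0.11 and -0.14, with 8 intervals below 0 and 3 above in each pair, where 14.0% and 12.8% of all genes had intervals below 0; Timp1 was at -0.35 and -0.63 and Serpina3n, an acute-phase inhibitor, at -0.60 and -0.43. The 16 dissociation stress genes, which the warm digestion of tissue can induce and which share Junb, Fos and Ier3 with that list, had medians of 0.01 and -0.06. The part of digestion in the Socs3 level was not tested.

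Among inflammatory progenitor genes, the medians over 11 of 12 were -0.05 and -0.22. Intervals lay below 0 for 4 and 8 of them and above 0 for 3 and 2, where 14.0% and 12.8% of all genes had intervals below 0. Ccl2, a monocyte attractant, was lower in Tom+ APC-like cells at -0.46 and -0.93, and Ptx3 was at -0.06 (-0.13 to 0.01) and -0.50 (-0.62 to -0.38). Of the genes that control the Il6 transcript, all 10 were measured, with medians of -0.09 and 0.01 and 4 intervals below 0 in each pair, against the same 14.0% and 12.8% of all genes; 1 and 0 were above 0. In macrophage-like cells 64 and 62 list genes reached 5 CPM, of which 2 (Hp and Cxcl12, both lower in Tom+) and 4 (Arid5a, Ccl2 and Ccl7 higher, Cxcl12 lower) were past 2-fold, over the background of 0.731% and 0.85% of genes.

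Of the receptors of related ligands, Il11ra1 and Cntfr were read in APC-like cells. Il11ra1, the IL-11 receptor, was at 222, 247, 239 and 246 CPM in APC-like cells, with Tom ratios of -0.16 (-0.24 to -0.07) and -0.04; near-identical mouse paralogues make its count uncertain. Cntfr, the ciliary neurotrophic factor receptor, was at 10.6, 16.8, 13.9 and 16.2 CPM, with ratios of -0.66 (-1.08 to -0.27) and -0.22. Clcf1, a ligand of that receptor, was at 5.66, 6.61, 4.92 and 5.67 CPM.

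The genes whose levels were most like each member's were found over 58 groups of a class in a library and 10882 genes, by the Pearson r of log2(CPM + 1). These r are a description, since groups share libraries and classes. Osmr was most like Lama4 (0.98), Igfbp7 and Cyr61 (both 0.97), genes of stromal and vascular matrix, and Il6st most like Amotl1, Nid2 and Syde1 (all 0.90). Il6 was most like Crispld2 (0.85), Pdgfrb (0.84) and Cygb (0.83), and Lifr most like Sh3pxd2a (0.85), Angptl4 (0.83) and Vangl2 (0.82). Osm was most like Alox5ap (0.92), Nlrp3 and Fcer1g (both 0.91), genes of myeloid and mast cells, and Il6ra most like Tlr2 (0.86), Sirpa (0.84) and Gm36161 (0.82). Lif, with Sec22b (0.80), Lrrn2 (0.78) and Arf4 (0.75), and Il11, with Arhgap20 (0.79), Ccdc8 and Sgce (both 0.77), had the least alike partners.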

How the data were processed

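The authors deposited counts: filtered matrices of UMI counts per gene and barcode for each of the 4 libraries, made with 10x Genomics 3′ chemistry (kit v3.1) and Cell Ranger 3.0.2 on mm10 with an added tdTomato row. From these raw counts, barcodes were kept where they held more than 1000 but fewer than 7000 genes, with mitochondrial UMIs below 8%, as in the study's methods, and the cells of highest Scrublet score were removed as doublets, 0.8% of cells per 1000 barcodes of the library. The 13878 cells were clustered with scanpy 1.11.5 (2000 variable genes, 30 components, 15 neighbours, Leiden resolution 1, leidenalg 0.10.2). A cluster was named where at least 3 markers were at 20 CPM or more and raised 4-fold over the median of clusters; it stayed unnamed where an unrelated class reached 80% of the leading class's share of raised markers, or where another class had more of the 10 leading genes. These rules were set after the data were seen. Ratios used genes of at least 5 CPM in both libraries, and intervals came from scipy 1.17.1. The ratio step was tested on simulated counts drawn from a Poisson distribution, which its intervals assume. Such counts lack the unevenness between cells described for Il6 and Lif, so the test does not cover their intervals.

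The members and lists were chosen with earlier results of these data known. Genes named were the 8 members, list genes past 2-fold in both pairs, Socs3, Stat3, Cntfr, Il11ra1, Clcf1 and Ptx3, and the 3 genes most like each member; other list genes, the genes of the APC-like clusters and those of Other observations were chosen after their values were seen. Positions are from GENCODE vM21. Depth per library, 64083756 to 139397501 UMIs, sets the counting error; thinning to 2000 UMIs left out 0 to 26 cells per library. With 0 UMIs in a class, up to 3 UMIs are allowed. Alternatives were doublets kept, a looser barcode filter (at least 500 genes, under 20% mitochondrial), Leiden resolution 2, thinning, equal weight of cells, leaving out shared barcodes or cells with Ptprc, 1 mix of clusters, and a minimum of 20 CPM.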

Additional observations from a re-analysis of the deposited data

How the results depend on the processing

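No paired analysis was possible because each group was 1 library. Without replicates, a value is said to move where it left its own 95% counting interval; the cause of each move was not tested. Of the alternatives, 3 were chosen after seeing the data: 1 mix of clusters, leaving out APC-like cells with a Ptprc UMI, and leaving out shallow copies of shared barcodes, which moved none of the 20 Tom ratios; the looser barcode filter also moved none of these. Thinning to 2000 UMIs turned the Lif ratio of APC-like cells in the pair labelled CD45+ from -0.84 to 0.65. At Leiden resolution 2 clusters led by Cxcl13 and by Fbn2 joined the APC-like class, so its values there are of a wider class.
In APC-like cells of the pair labelled CD45-, the Il6 ratio was -0.17 with doublets kept, -0.59 at Leiden resolution 2, -0.14 thinned, -0.14 with 1 mix of clusters and -0.16 without cells with Ptprc; Il6st was -0.33 thinned and -0.31 without shared barcodes; Osmr was -0.33 at resolution 2; Lifr was -0.43 at resolution 2, -0.28 without shared barcodes and -0.021 without cells with Ptprc. In the pair labelled CD45+, Il6 was -0.93 at resolution 2, -0.85 thinned, -0.68 with each cell weighing the same, -0.45 without shared barcodes and -0.81 without cells with Ptprc; Osmr was -0.40 at resolution 2 and -0.64 thinned; Lifr was -0.37 at resolution 2 and 0.19 thinned. In macrophage-like cells labelled CD45-, Osm was -0.23 thinned, and Il6ra 0.11 at resolution 2, -0.52 thinned and -0.33 without shared barcodes; labelled CD45+, Osm was -0.12 with doublets kept and Il6ra -0.25 without shared barcodes. Il6 in APC-like cells thus stayed below 0 in both pairs under each alternative run.
The share of Il6 UMIs in APC-like cells was, for CD45- Tom+, 51.3% with doublets kept, 49.7% with the looser filter, 60.6% at resolution 2, 60.1% thinned and 66.1% without shared barcodes. For CD45- Tom- it was 83.7% with the looser filter, 89.2% at resolution 2 and 88.7% without shared barcodes. For CD45+ Tom+ it was 45.2% with doublets kept, 49.6% at resolution 2, 34.0% thinned and 52.1% without shared barcodes. For CD45+ Tom- it was 85.9% with doublets kept, 83.9% with the looser filter, 90.6% at resolution 2 and 89.6% without shared barcodes. Without APC-like cells with Ptprc it was 48.9%, 82.7%, 28.8% and 84.7%. At a minimum of 20 CPM, the background past 2-fold was 0.245% and 0.268% (APC-like, by Tom), 0.251% (APC-like, CD45 label within Tom+), and 0.337% and 0.408% (macrophage-like), and list genes past 2-fold numbered 0 in APC-like cells labelled CD45+ and 0 and 2 in macrophage-like cells. Lif, at 13.3 and 15.2 CPM in Tom+ APC-like cells, was then outside the count by Tom label. Of the 5 family genes left in each pair of APC-like cells, 0 were past 2-fold.
Depth limits Il11 (28 to 150 UMIs per library) and Lif in Tom+ APC-like cells (73 and 34 UMIs).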

Other observations

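Further IL-6 family genes had sources of their own. Ctf1, which encodes cardiotrophin-1, was at 15.4, 23.3 and 26.2 CPM in mesothelial-like cells (67, 375 and 382 cells). Clcf1 was at 18.7, 31.9, 18.7 and 30.6 CPM in the Cxcl13/Cxcl5/Saa3 cluster, where Saa3, an acute-phase gene, was also at its highest. Ebi3, a subunit of IL-27, was at 25.9, 26.3, 23.6 and 27.3 CPM in macrophage-like cells, while the other subunit, Il27, had 34, 16, 12 and 26 UMIs per library. Il27ra was at 82.8, 130, 99.2 and 126 CPM in a cluster led by Trdc, Cd163l1 and Tcrg-C1 and at 25.3 to 79.1 CPM in T cell-like cells. Cntf had 0, 0, 1 and 2 UMIs and Il31 0, 1, 2 and 1 UMIs per library.

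Genes of the proteases that release soluble IL-6Rα are given for the Arg1/Olr1/AA467197 cluster and macrophage-like cells. Il6ra overlapped between them, at 91.9 to 119 and 95.8 to 105 CPM. Adam10 was at 570, 562, 551 and 559 CPM in the Arg1/Olr1/AA467197 cluster and at 161, 156, 165 and 164 CPM in macrophage-like cells. Adam17 was at 187, 192, 166 and 179 CPM in that cluster and 117, 112, 120 and 128 CPM in macrophage-like cells. In macrophage-like cells with an Osm UMI, 81.9%, 87.7%, 86.7% and 81.4% also had Il6ra, against 77.8%, 72.4%, 67.5% and 77.8% of those without; depth differs between such cells, and its part was not tested.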
